A study of Homo sapiens with 12 samples.

Results

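Interferon-stimulated genes were followed in MDA-MB-231 and Hs-578T, 2 long-established lines of triple-negative breast carcinoma, after the ERK5 kinase pathway had been altered. The genes were 49 rows taken by name out of 32152 genes with RPKM values, which scale the reads on a gene by the length of its model and by the depth of the library. Of the 49, 48 passed the filter for testing, which asked for 0.5 RPKM or more in 2 or more of 12 libraries, and CXCL10 did not. CXCL11 and HERC5 passed through MDA-MB-231 alone.

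Each line gave 2 libraries in each of 3 groups. Parental controls of MDA-MB-231 carried passage labels 29 and 30, its cells labelled ERK5-ko 7 and 8, and its cells labelled MEK5DD 10 and 11. In Hs-578T the passages were 83 and 84, then 8 and 9 in both altered groups. ERK5-ko cells came from CRISPR/Cas9 cutting of MAPK7, the gene of ERK5, with guides to exons 3 and 5 and growth from single sorted cells. The MDA-MB-231 knock-out is 1 surviving clone, and which of 6 Hs-578T clones was sequenced is not given in the sources used here. MEK5DD stands for MEK5, the kinase upstream of ERK5, in a permanently active form, and how these cells were made is not given in those sources. Altered cells and parental controls differ in passage as well as in genotype, and these cannot be told apart. The p-values measure the spread between libraries of consecutive passages, pooled for each gene over all 6 groups of both lines. They do not measure the spread between separate cultures or clones. The libraries of a group lay further apart in Hs-578T parental and Hs-578T MEK5DD than in the other groups, which the pooled spread does not show. In bulk RNA, fewer cells that express a gene and less RNA in each cell cannot be told apart either.

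Interferons are secreted proteins that cells release on sensing viral or misplaced nucleic acids. Type I and type III interferons bind receptors that activate JAK kinases, which phosphorylate STAT proteins. STAT2, its partner STAT and IRF9 form a complex that binds the interferon-stimulated response element, ISRE, in promoters. Type II interferon acts through STAT dimers on the gamma-activated site, GAS. The induced proteins degrade or sequester viral RNA, block entry and assembly, tag proteins with ISG15 and present antigen, and many cancer cell lines express them without added interferon.

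Promoter sequences show what the genes share beyond their names. RefSeq promoters of GRCh38.p14, 250 bases before to 50 after the start, matched 40 of the 49 genes, DDX58 under the symbol RIGI. The ISRE was searched as GAAANNGAAA on both strands and was present in 28 of the 40 (70%), against 4.38% of all 27305 genes with such a promoter and 4.09% of the 10281 tested ones. The GAS, searched as TTCNNNGAA, which is its own reverse complement, was present in 14 of 40 (35%), against 9.38% of all genes. The E-box CACGTG, a motif that is neither an ISRE nor a GAS, was present in 4 of 40 (10%), against 8.77%. A match describes letters in the window, and no binding was measured. Overlapping matches occur, for instance in BST2, where a GAS match ends within its ISRE matches.

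These stretches lie before the start of 8 genes that carry the results below. They are written along the strand of the gene, with ISRE matches in capitals (TTTC repeats are matches on the opposite strand):
ISG15: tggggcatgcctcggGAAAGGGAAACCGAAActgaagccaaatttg
IFIT1: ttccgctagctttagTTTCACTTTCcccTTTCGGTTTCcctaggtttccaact
RSAD2: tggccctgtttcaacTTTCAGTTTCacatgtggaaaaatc
MX1: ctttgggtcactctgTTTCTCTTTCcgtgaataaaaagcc
OAS3: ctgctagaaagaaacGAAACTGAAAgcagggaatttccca
IFITM1: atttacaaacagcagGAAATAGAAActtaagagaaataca
BST2: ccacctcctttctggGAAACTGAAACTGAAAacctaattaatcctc
IFI27: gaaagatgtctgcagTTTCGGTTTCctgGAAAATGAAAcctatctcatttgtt
They lie at chr1:1013369-1013414 (plus strand), chr10:89392492-89392544 (plus), chr2:6877617-6877656 (plus), chr21:41431839-41431878 (plus), chr12:112938316-112938355 (plus), chr11:313985-314024 (plus), chr19:17405730-17405775 (minus) and chr14:94110613-94110665 (plus), in that order. ISG15, BST2, IFIT1 and IFI27 hold 2 matches within the stretch shown, and the others hold 1. IRF1 and IRF9, which encode transcription factors of the pathway, had a GAS match and no ISRE match. Their stretches, with the GAS match in capitals, are shown beside them:
IRF1: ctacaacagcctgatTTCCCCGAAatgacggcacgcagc
IRF9: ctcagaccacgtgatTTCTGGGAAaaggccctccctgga
They lie at chr5:132490874-132490912 (minus strand) and chr14:24161187-24161225 (plus strand).

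Library totals lay between 20248162 and 27791195 reads, and no pair of libraries was identical. Both lines had hardly any ESR1 or PGR (at most 0.348 RPKM), and CDH2 was high only in Hs-578T (135 and 146 RPKM in its parental libraries). The list of hormone receptors holds 3 genes, and the remaining gene was expressed. The sum of the list was 49.26 to 49.29 RPKM in parental MDA-MB-231 and 39.2 to 44.2 in parental Hs-578T. Libraries labelled ERK5-ko had no less MAPK7 RNA than the parental libraries of their line (13.3 and 14.3 parental and 16.3 and 17.8 ERK5-ko RPKM in MDA-MB-231), so that directions refer to the labels. By Western blot the paper reports far less ERK5 protein in the knock-out cells of both lines, and RNA levels do not measure protein. MAP2K5, the gene of MEK5, read 188 and 184 RPKM in MDA-MB-231 MEK5DD against 12.9 and 13.6 in parental libraries. In Hs-578T MEK5DD it read 21.3 and 23.8 against 14.6 and 16.9. The leukocyte genes CD3E and PTPRC stayed at or under 0.396 RPKM, while CD68, a lysosomal protein of macrophages, read 62.5 and 69.0 in parental MDA-MB-231. Of the endothelial genes CDH5 stayed at or under 0.0259 RPKM, while PECAM1 read 5.39 and 5.72 in parental Hs-578T.

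In MDA-MB-231 cells labelled MEK5DD, interferon-stimulated genes were broadly lower than in parental cells. Calls of higher expression needed an adjusted p under 0.05 (limma on log2(RPKM + 0.5), adjusted over the 13737 protein-coding genes tested) and a fold above 1.5, and calls of lower expression that p and a fold below 0.5. A gene with an adjusted p under 0.05 at any fold is said to pass the test. Of 48 genes, 18 were called lower, where 6.31% of all tested genes were, and 2 were called higher (IFITM2 and IRF7), where 7.64% were. Without the fold threshold 30 passed lower and 5 higher, with 23.8% and 17.5% of all genes. The median log2 difference of the 48 genes was -0.71, against -0.01 over all tested genes. Both MEK5DD libraries lay below both parental libraries in 39 genes and above them in 7, where 41.6% and 38.5% of all genes did so. By role, all 4 IFIT genes passed lower, as did 5 of 6 genes of the OAS family, PKR and RNA decay and all 7 of MX, viperin, tetherin and other effectors, while 2 of 4 transcription factors passed higher.

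**Figure D1:**
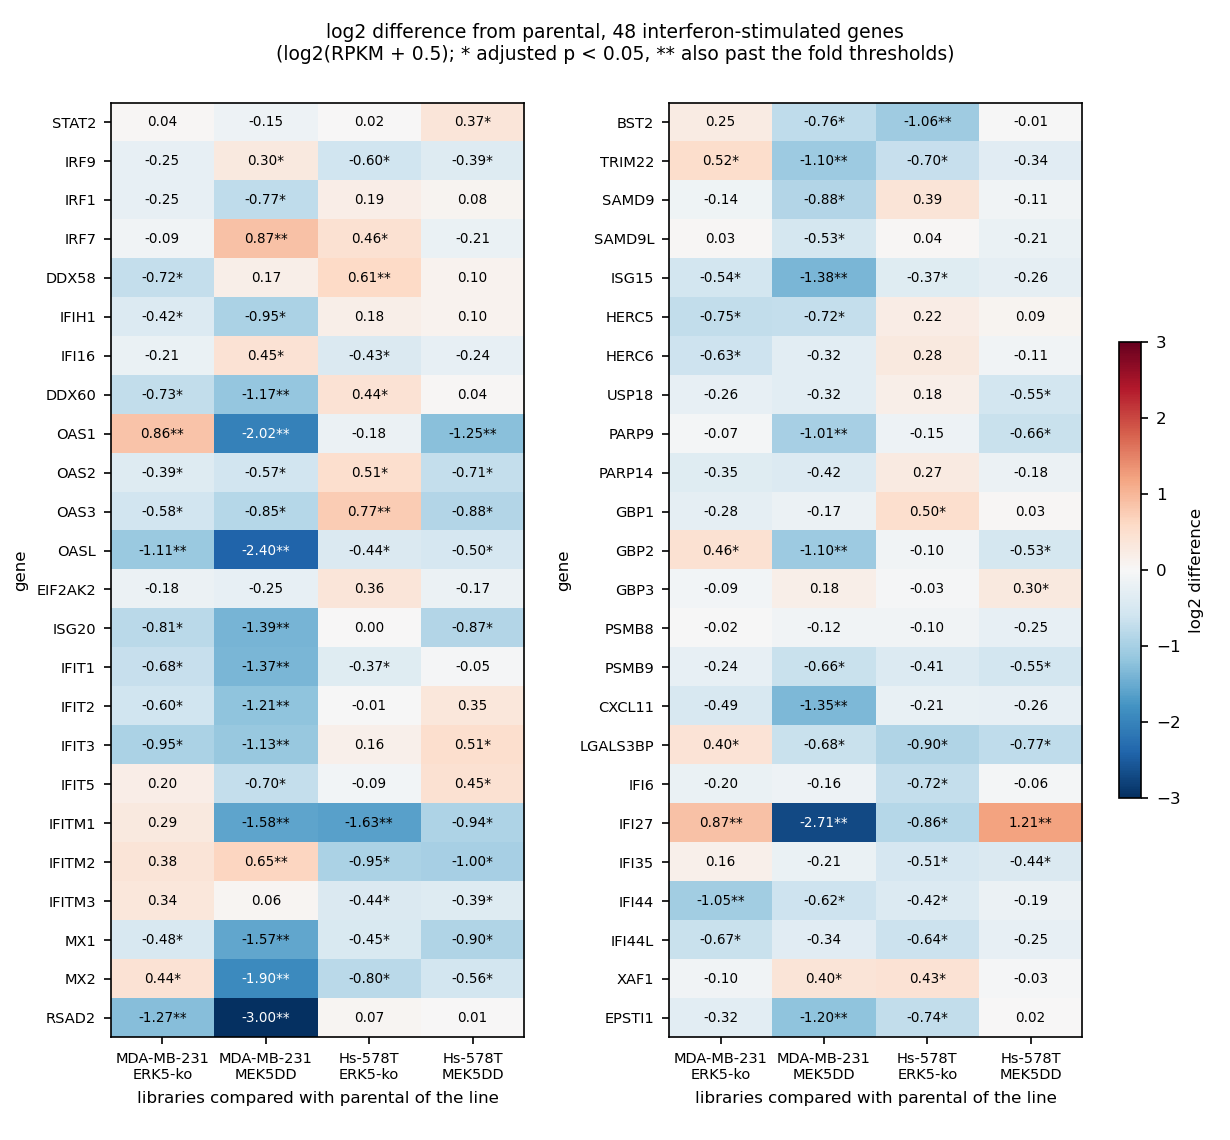
Log2 difference from the parental libraries of the same line for the 48 tested interferon-stimulated genes, in columns by cell line and label and ordered by role. Blue is lower and red is higher than parental; 1 star marks an adjusted p under 0.05 and 2 stars a called gene, of which the MDA-MB-231 MEK5DD column holds 18 lower and 2 higher.

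The other comparisons with parental cells moved fewer genes. MDA-MB-231 ERK5-ko had 2 genes called higher (IFI27 and OAS1) and 3 called lower (IFI44, OASL and RSAD2), where 2.8% and 1.07% of all genes were called. At any fold 6 passed higher and 17 lower, with 6.91% and 10.4% of all genes. Hs-578T ERK5-ko had 2 called higher (DDX58 and OAS3) and 2 called lower (BST2 and IFITM1), with 9.35% and 3.27% of all genes. At any fold 7 passed higher and 19 lower, with 19.7% of all genes in each direction. Hs-578T MEK5DD had IFI27 called higher and OAS1 called lower, with 2.9% and 1.49% of all genes, and 5 passed higher and 17 lower at any fold, with 6.44% and 17%. The single lower call in Hs-578T MEK5DD was 6 in limma voom on whole reads, 5 with a pseudocount of 0.1, 0 with a pseudocount of 1 and 0 to 4 on leaving out a library. Median log2 differences of the 48 genes were -0.24, -0.10 and -0.21 in these comparisons, and those of all genes were -0.04, 0.01 and -0.08. With median-ratio scaling of the libraries the calls in Hs-578T were 1 higher and 2 lower for ERK5-ko and 2 higher and 1 lower for MEK5DD. In Hs-578T ERK5-ko the median of all genes also moved with gene length, -0.12 for 2163 genes with models under 1000 bases and 0.16 for 1839 of 3000 bases or more. Taking gene length out of each library left 1 of the 2 lower calls there. Without the parental library of passage 84 there were 5 genes called higher, and without that of passage 83 there was 1 called lower.

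Of the 4 transcription factors of the pathway, IRF7 and IRF9 passed higher and IRF1 lower with MEK5DD in MDA-MB-231, and none passed with ERK5-ko there. STAT2, the partner of IRF9 in the complex that binds ISREs, read 36.1 and 39.5 RPKM in parental MDA-MB-231, 40.7 and 37.3 in ERK5-ko and 33.2 and 34.7 in MEK5DD. In Hs-578T it read 39.7 and 43.3, 41.0 and 42.9 and 52.1 and 55.3 in the same order. Its MEK5DD log2 difference was -0.15 (SE 0.09, adjusted p = 0.201, limma) in the first line, while STAT2 rose by 0.37 (adjusted p = 0.013) in Hs-578T. IRF9, the DNA-binding member of that complex, read 15.01 and 15.3 RPKM in parental MDA-MB-231, 12.5 and 12.9 in ERK5-ko and 18.1 and 19.4 in MEK5DD. In Hs-578T, with 34.3 and 34.0 in parental, 22.9 and 21.7 in ERK5-ko and 25.003 and 26.8 in MEK5DD libraries, it was lower in every altered library than in both parental ones. IRF9 thus rose by 0.30 (adjusted p = 0.0156) with MEK5DD in MDA-MB-231 and fell by 0.39 (adjusted p = 0.00757) in Hs-578T. The model of IRF9 shares its whole span with another gene model on the same strand, so that reads could be split between them. IRF1, a factor induced by type II interferon that binds similar sites, read 25.8 and 29.1 RPKM in parental MDA-MB-231, 22.1 and 23.9 in ERK5-ko and 17.5 and 14.4 in MEK5DD. It fell by 0.77 (SE 0.13, adjusted p = 0.000576) with MEK5DD in that line, and its Hs-578T levels were 29.4 and 25.8 RPKM in parental, 32.0 and 30.8 in ERK5-ko and 26.1 and 32.4 in MEK5DD libraries. Neither label passed there (0.19, adjusted p = 0.269, and 0.08, adjusted p = 0.717).

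IRF7, which drives the production of type I interferons and is itself induced by them, went the other way in MDA-MB-231. It read 9.11 and 8.44 RPKM in parental, 7.32 and 9.14 in ERK5-ko and 15.6 and 17.4 in MEK5DD libraries, a rise of 0.87 on the log2 scale (SE 0.13, adjusted p = 0.000195) with MEK5DD. Its Hs-578T levels were 4.29 and 4.06 in parental, 6.41 and 5.46 in ERK5-ko and 3.57 and 3.53 in MEK5DD libraries. There it rose by 0.46 (adjusted p = 0.0138) with ERK5-ko, and both MEK5DD libraries lay just under the parental ones (-0.21, adjusted p = 0.273).

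Among the sensors of nucleic acids, the helicases that detect viral RNA split by line. DDX58, which encodes RIG-I, read 21.5 and 21.5 RPKM in parental MDA-MB-231, 13.2 and 12.4 in ERK5-ko and 25.2 and 23.4 in MEK5DD. In Hs-578T its level was 2.77 and 2.81 in parental, 4.43 and 4.59 in ERK5-ko and 2.56 and 3.58 in MEK5DD. With the ERK5-ko label it fell by 0.72 (adjusted p = 0.00302) in the first line and rose by 0.61 (adjusted p = 0.00325) in the second, a difference of -1.33 (adjusted p = 0.000208). IFIH1, which encodes the related sensor MDA5, fell by 0.95 (adjusted p = 0.000124) with MEK5DD in MDA-MB-231, from 11.97 and 11.8 to 6.04 and 5.78 RPKM, and stayed between 1.98 and 2.90 RPKM in all Hs-578T libraries. DDX60, a helicase reported to aid RIG-I, was called lower with MEK5DD in MDA-MB-231 at -1.17 (adjusted p = 0.000142). IFI16, a sensor of DNA, rose by 0.45 (adjusted p = 0.00956) in those MEK5DD cells.

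The OAS genes encode synthetases of 2′-5′ oligoadenylate, the second messenger that activates an RNA-degrading enzyme. OAS1 read 2.63 and 1.96 RPKM in parental MDA-MB-231, 4.59 and 4.47 in ERK5-ko and 0.183 and 0.190 in MEK5DD, and the 3 groups did not overlap. In Hs-578T it read 2.69 and 2.37 in parental, 2.31 and 2.03 in ERK5-ko and 1.04 and 0.557 in MEK5DD. OAS1 was the one gene called lower with MEK5DD in both lines, by -2.02 (SE 0.17, adjusted p = 2.98e-06) and -1.25 (SE 0.17, adjusted p = 0.000528). Without the Hs-578T MEK5DD library of passage 9 the second was -0.97 (adjusted p = 0.00144) and no longer below the fold of 0.5. With ERK5-ko in MDA-MB-231 it rose by 0.86 (adjusted p = 0.00566), a call that was lost (adjusted p = 0.0711) without the parental library of passage 30.

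OAS3 and OAS2, its neighbours, moved differently from OAS1 with the ERK5-ko label. OAS3 read 25.6 and 24.1 RPKM in parental MDA-MB-231, 16.7 and 16.1 in ERK5-ko and 13.7 and 13.3 in MEK5DD. Its Hs-578T values of 1.496 and 1.62 in parental, 2.83 and 3.21 in ERK5-ko and 0.553 and 0.689 in MEK5DD libraries were far lower. It fell with MEK5DD in both lines, by 0.85 (adjusted p = 7.02e-05) and 0.88 (adjusted p = 0.000256). With ERK5-ko it fell by 0.58 (adjusted p = 0.00379) in MDA-MB-231 and rose by 0.77 (adjusted p = 0.000228) in Hs-578T. OAS2 followed the same 4 directions, at -0.57, -0.71, -0.39 and 0.51. OASL, a member of the family without synthetase activity, read 15.1 and 14.7 RPKM in parental MDA-MB-231, 5.97 and 7.38 in ERK5-ko and 2.50 and 2.33 in MEK5DD. It was called lower at -1.11 (SE 0.16, adjusted p = 0.000722) and -2.40 (SE 0.16, adjusted p = 3.33e-07), and no Hs-578T library exceeded 0.591 RPKM. EIF2AK2, the gene of the RNA-dependent kinase PKR, passed in none of the 4 comparisons with parental cells. ISG20, an exonuclease, read 3.31 and 3.28 RPKM in parental MDA-MB-231, 1.34 and 2.04 in ERK5-ko and 0.975 and 0.918 in MEK5DD, and was called lower with MEK5DD at -1.39 (SE 0.23, adjusted p = 0.000484). Its Hs-578T libraries read 3.70 and 2.49, 3.12 and 2.99 and 1.99 and 1.01 in the order parental, ERK5-ko and MEK5DD. There it fell with MEK5DD as well (-0.87, adjusted p = 0.0184).

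**Figure D2:**
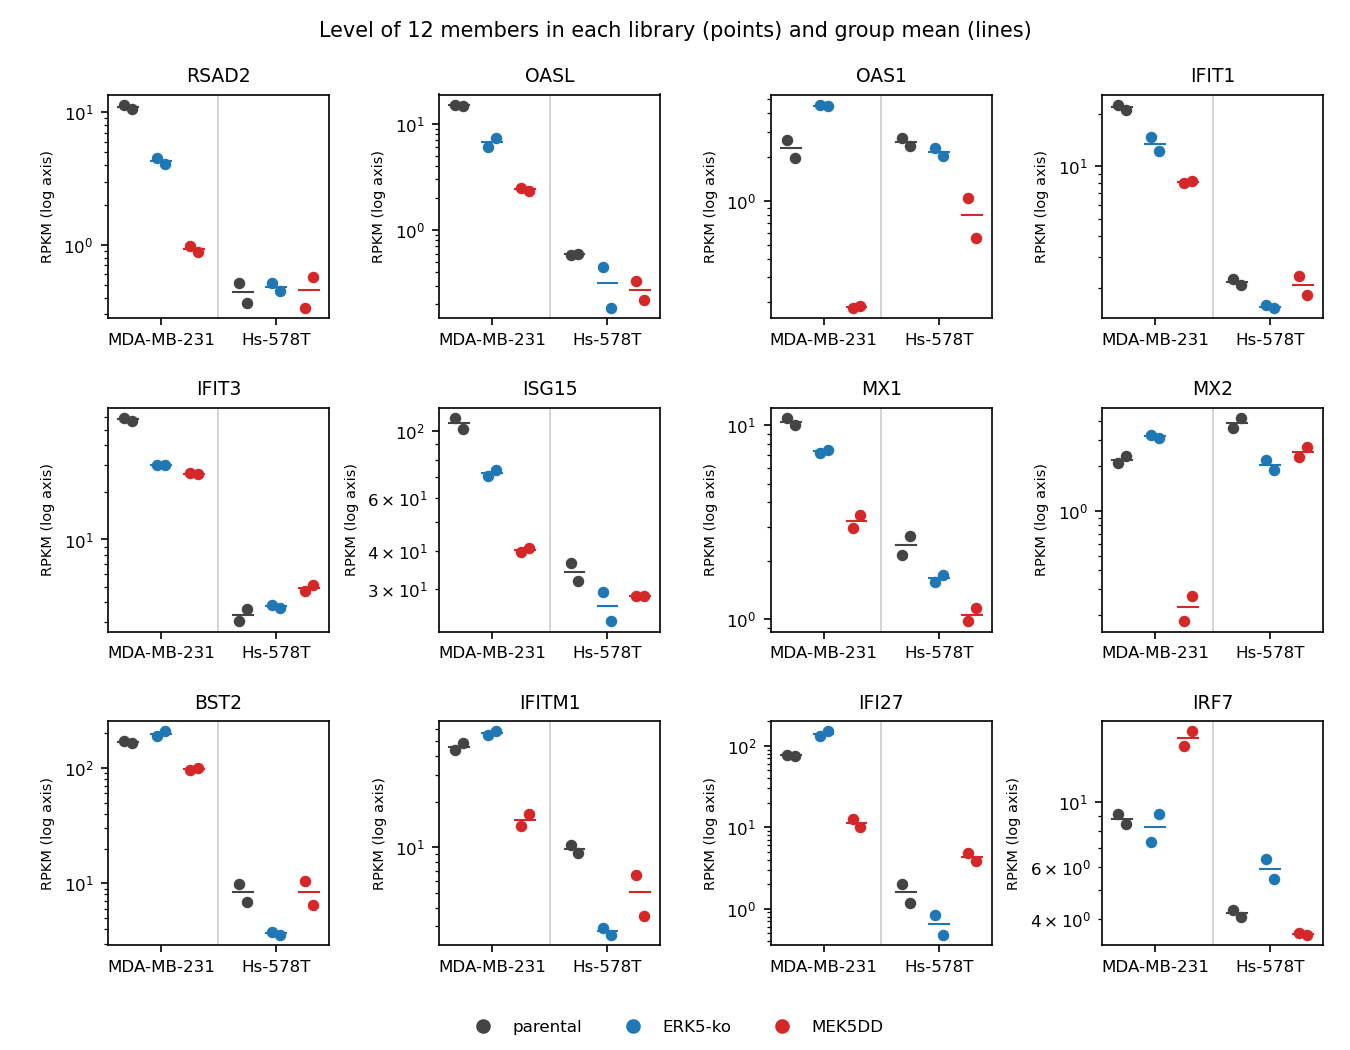
RPKM on log axes of 12 of the genes in each library (points) with the group mean (lines), parental grey, ERK5-ko blue and MEK5DD red, with MDA-MB-231 on the left and Hs-578T on the right of each panel. In MDA-MB-231 the MEK5DD points of RSAD2, OASL, OAS1, IFIT1, IFIT3, ISG15, MX1, MX2, BST2, IFITM1 and IFI27 lie below all other points of that line, and those of IRF7 lie above them.

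The IFIT proteins bind foreign RNA ends and block their translation. IFIT1 read 22.7 and 21.1 RPKM in parental MDA-MB-231, 14.7 and 12.2 in ERK5-ko and 8.02 and 8.29 in MEK5DD, falling by 0.68 (adjusted p = 0.00391) and 1.37 (adjusted p = 6.13e-06). IFIT3, which stabilises IFIT1, read 59.3 and 57.0 in parental, 29.9 and 29.8 in ERK5-ko and 26.6 and 26.0 in MEK5DD libraries of that line. It fell by 0.95 (SE 0.10, adjusted p = 0.000116) and 1.13 (SE 0.10, adjusted p = 4.53e-06), and IFIT2 moved alike, at -0.60 and -1.21. In Hs-578T IFIT3 read 3.01 and 3.63 in parental, 3.80 and 3.69 in ERK5-ko and 4.71 and 5.10 in MEK5DD libraries, a rise of 0.51 (adjusted p = 0.0047) with MEK5DD. IFIT5 lay between 11.4 and 14.2 RPKM in parental and ERK5-ko libraries of MDA-MB-231 and at 7.09 and 6.86 in MEK5DD. In Hs-578T its levels were 4.37 and 4.43 in parental, 4.08 and 4.15 in ERK5-ko and 6.01 and 6.38 in MEK5DD, so that MEK5DD went with a fall of 0.70 in the first line and a rise of 0.45 in the second. The IFIT genes lie side by side on chromosome 10. The gene spans of IFIT1, IFIT2 and IFIT3 overlap LIPA on the opposite strand, and how reads in overlaps were assigned is not given in the sources used here.

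The IFITM proteins sit in membranes and hinder the entry of viruses. IFITM1 read 43.8 and 48.7 RPKM in parental MDA-MB-231, 54.9 and 58.3 in ERK5-ko and 13.8 and 16.6 in MEK5DD. The levels in Hs-578T were 10.3 and 9.11 in parental, 2.93 and 2.64 in ERK5-ko and 6.56 and 3.51 in MEK5DD, and every altered library lay below both parental ones. IFITM1 was called lower with MEK5DD in MDA-MB-231 at -1.58 (SE 0.21, adjusted p = 9.14e-05) and with ERK5-ko in Hs-578T at -1.63 (SE 0.21, adjusted p = 0.00011). Its neighbour IFITM2 read 87.5 and 94.3 RPKM in parental MDA-MB-231, 116 and 121 in ERK5-ko and 138 and 149 in MEK5DD. The rise with MEK5DD of 0.65 (adjusted p = 0.00758) was opposite to IFITM1, and it was lost without the parental library of passage 29 (adjusted p = 0.058) or the MEK5DD library of passage 11 (adjusted p = 0.0606). In Hs-578T IFITM2 read 105 and 103 in parental, 55.0 and 52.3 in ERK5-ko and 65.5 and 40.8 in MEK5DD libraries, falling by 0.95 (adjusted p = 0.000952) and 0.999 (adjusted p = 0.00152). IFITM3, the most abundant of the family, read 288 and 300.2 RPKM in parental MDA-MB-231, 350.2 and 396 in ERK5-ko and 295 and 321 in MEK5DD. It read 546 and 479.6, 393 and 360.4 and 435 and 352 in the same order in Hs-578T, where it fell by 0.44 (adjusted p = 0.014) with ERK5-ko. The IFITM genes are near-identical in parts, and the models of IFITM1 and IFITM2 overlap by 1767 bases on 1 strand, so that the authors' counting could have split or shifted reads between them.

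Among the effectors against replication and release was RSAD2, which encodes viperin. On the log2(RPKM + 0.5) scale it gave the largest difference of all 48 genes in the 4 comparisons. This rank depends on the added 0.5 RPKM, because the MDA-MB-231 MEK5DD means of OAS1 (0.186 RPKM) and CXCL11 (0.048 RPKM) lay under it. RSAD2 read 11.4 and 10.5 RPKM in parental MDA-MB-231, 4.49 and 4.06 in ERK5-ko and 0.982 and 0.882 in MEK5DD. It was called lower at -1.27 (SE 0.14, adjusted p = 0.000146) and -3.001 (SE 0.14, adjusted p = 2.17e-08). In Hs-578T it was near the filter in every library, at 0.517 and 0.367 in parental, 0.515 and 0.453 in ERK5-ko and 0.333 and 0.576 in MEK5DD, and neither label differed by more than 0.07. MX1, a GTPase that traps viral nucleocapsids, read 10.9 and 9.99 RPKM in parental MDA-MB-231, 7.17 and 7.47 in ERK5-ko and 2.94 and 3.44 in MEK5DD. Its levels in Hs-578T were 2.14 and 2.67 in parental, 1.56 and 1.68 in ERK5-ko and 0.972 and 1.14 in MEK5DD. MX1 passed lower in all 4 comparisons with parental cells, at -0.48 (adjusted p = 0.0222) and -1.57 (adjusted p = 1.84e-06) in the first line and -0.45 (adjusted p = 0.0151) and -0.90 (adjusted p = 0.0006) in the second, and was called with MEK5DD in MDA-MB-231.

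MX2, its paralogue at the nuclear pore, lies 10914 bases away and read 2.08 and 2.32 RPKM in parental MDA-MB-231, 3.24 and 3.08 in ERK5-ko and 0.181 and 0.268 in MEK5DD. It rose by 0.44 (adjusted p = 0.0318) with ERK5-ko and was called lower with MEK5DD at -1.90 (adjusted p = 3.39e-07). In Hs-578T it read 3.61 and 4.19 in parental, 2.18 and 1.87 in ERK5-ko and 2.30 and 2.66 in MEK5DD, and fell by 0.80 (adjusted p = 0.000446) and 0.56 (adjusted p = 0.00789). Both lie on chromosome 21, whose 132 tested genes had a median of -0.20 with MEK5DD in MDA-MB-231 against -0.01 over all genes. The part of that shift in the MX values was not tested.

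BST2 encodes tetherin, which holds budding virus at the cell surface. It read 169 and 163 RPKM in parental MDA-MB-231, 187 and 207 in ERK5-ko and 96.5 and 98.9 in MEK5DD. The Hs-578T values were 9.85 and 6.92 in parental, 3.81 and 3.58 in ERK5-ko and 10.4 and 6.499 in MEK5DD. BST2 was called lower with ERK5-ko in Hs-578T at -1.06 (SE 0.19, adjusted p = 0.00105) and fell by 0.76 (adjusted p = 0.00679) with MEK5DD in MDA-MB-231. TRIM22, a ligase that acts on viral proteins, was called lower with MEK5DD in MDA-MB-231 at -1.10 (adjusted p = 0.000147) and rose by 0.52 (adjusted p = 0.0359) with ERK5-ko. Its span overlaps TRIM5 on the opposite strand. SAMD9 and SAMD9L, which restrict poxviruses, fell with MEK5DD in MDA-MB-231 by 0.88 and 0.53 and passed in none of the other 3 comparisons. Both lie on chromosome 7, whose 637 tested genes had a median of -0.26 with MEK5DD in MDA-MB-231. The part of that shift in their values was not tested.

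ISG15, a ubiquitin-like protein that is conjugated to other proteins, was among the 5 genes of the set with the highest level in parental MDA-MB-231. It read 110.1 and 101 RPKM in parental MDA-MB-231, 70.7 and 74.2 in ERK5-ko and 39.7 and 40.8 in MEK5DD, falling by 0.54 (adjusted p = 0.00673) and 1.38 (adjusted p = 1.96e-06). In the other line it read 36.4 and 31.8, 29.3 and 23.3 and 28.3 and 28.4 in the order parental, ERK5-ko and MEK5DD. HERC5, the ligase that attaches ISG15 in human cells, read 28.7 and 24.4 RPKM in parental MDA-MB-231, 15.2 and 16.0 in ERK5-ko and 16.5 and 15.1 in MEK5DD. It was almost silent in Hs-578T, with 2 reads and 1 read in the parental libraries and at most 0.120 RPKM in any library. Against a floor of 3 reads a library, which covers counting error only, parental MDA-MB-231 was at least 427-fold higher. HERC6 fell by 0.63 (adjusted p = 0.00474) with ERK5-ko in MDA-MB-231 and read -0.32 (adjusted p = 0.0538) with MEK5DD. USP18, which removes ISG15 and dampens the type I receptor, fell by 0.55 (adjusted p = 0.0171) with MEK5DD in Hs-578T and passed in no other comparison with parental cells. PARP9, an ADP-ribosyltransferase that partners a ubiquitin ligase, fell with MEK5DD in both lines, by 1.01 (adjusted p = 0.000209) and 0.66 (adjusted p = 0.0081), and PARP14 passed in none of the 4.

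The guanylate-binding proteins coat intracellular pathogens. GBP2 was called lower with MEK5DD in MDA-MB-231 at -1.10 (adjusted p = 2.52e-05), from 25.9 and 24.0 RPKM to 11.3 and 11.5, and rose to 37.0 and 32.2 with ERK5-ko (0.46, adjusted p = 0.0242). GBP1 and GBP3, its neighbours on chromosome 1, did not pass in either comparison of that line, while GBP1 rose by 0.50 (adjusted p = 0.00858) with ERK5-ko in Hs-578T and GBP3 rose by 0.30 (adjusted p = 0.0402) with MEK5DD there. The immunoproteasome subunits cut proteins into peptides for antigen presentation. PSMB8 read 60.4 and 56.5 RPKM in parental MDA-MB-231, 55.0 and 60.03 in ERK5-ko and 53.6 and 54.0 in MEK5DD. With 62.5 and 47.4, 51.2 and 50.2 and 55.2 and 37.7 in Hs-578T, its groups overlapped in that line, and it passed in no comparison with parental cells. PSMB9 fell with MEK5DD in both lines, by 0.66 (adjusted p = 0.00709) and 0.55 (adjusted p = 0.031).

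Of the chemokines that draw T cells, CXCL10 had at most 6 reads in any library. CXCL11 read 1.10 and 0.731 RPKM in parental MDA-MB-231 and 0.375 and 0.644 in ERK5-ko, and its MEK5DD libraries held 1 and 2 reads. Against the floor of 3 reads parental cells were at least 9.27-fold higher, and its fitted differences depend on the added 0.5 RPKM. LGALS3BP, a secreted glycoprotein that binds galectin, had the highest mean level of the 49 genes. It read 599 and 642 RPKM in parental MDA-MB-231, 798 and 844 in ERK5-ko and 381 and 395 in MEK5DD, rising by 0.40 (adjusted p = 0.0103) and falling by 0.68 (adjusted p = 0.000107). Its Hs-578T levels were 603 and 585 in parental, 331 and 307 in ERK5-ko and 347 and 349 in MEK5DD, and fell by 0.90 (adjusted p = 2.2e-05) and 0.77 (adjusted p = 0.000186).

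IFI27, a small membrane protein of mitochondria that is a common marker of interferon responses, changed in all 4 comparisons with parental cells and in opposite directions. It read 77.5 and 75.6 RPKM in parental MDA-MB-231, 131 and 150.4 in ERK5-ko and 12.6 and 10.1 in MEK5DD. The levels in Hs-578T were 2.03 and 1.19 in parental, 0.827 and 0.478 in ERK5-ko and 4.79 and 3.81 in MEK5DD, so that the order of the groups was reversed between the lines and no groups overlapped within either. With MEK5DD it was called lower in MDA-MB-231 at -2.71 (SE 0.20, adjusted p = 1.01e-06) and higher in Hs-578T at 1.21 (SE 0.20, adjusted p = 0.00169). With ERK5-ko it rose by 0.87 (adjusted p = 0.0128) in MDA-MB-231 and fell by 0.86 (adjusted p = 0.00609) in Hs-578T. The first of these was lost (adjusted p between 0.074 and 0.102) without either parental library or the ERK5-ko library of passage 8. The second was lost as well without the Hs-578T parental library of passage 83 (-0.57, adjusted p = 0.0534) or the ERK5-ko library of passage 9 (-0.64, adjusted p = 0.081).

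IFI44, a gene induced by type I interferon, read 31.0 and 27.8 RPKM in parental MDA-MB-231, 13.1 and 14.8 in ERK5-ko and 20.4 and 17.5 in MEK5DD. Its levels in Hs-578T were 11.9 and 13.2 in parental, 8.95 and 9.56 in ERK5-ko and 11.1 and 10.8 in MEK5DD. It was called lower with ERK5-ko in MDA-MB-231 at -1.05 (SE 0.11, adjusted p = 0.000114), and IFI44L next to it fell by 0.67 (adjusted p = 0.0203). EPSTI1 was called lower with MEK5DD in MDA-MB-231 at -1.20 (adjusted p = 4.17e-06) and fell with ERK5-ko in Hs-578T by 0.74 (adjusted p = 0.000258). XAF1, which counters inhibitors of apoptosis, rose with MEK5DD in MDA-MB-231 by 0.40 and with ERK5-ko in Hs-578T by 0.43. IFI6 fell with ERK5-ko in Hs-578T by 0.72, and IFI35 fell there with both labels, by 0.51 and 0.44.

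Direct comparison of the altered cells gave the widest spread in MDA-MB-231. Of 48 genes, 19 were called higher in ERK5-ko than in MEK5DD, where 17.5% of all genes were, and 0 were called lower, where 6.12% were. At any fold 25 passed higher and 8 lower in limma, with 27.1% and 27.9% of all genes. IFI27 was 3.58 (SE 0.20, adjusted p = 5.79e-08) higher on the log2 scale, OAS1 2.87 and MX2 2.34. DDX58, GBP3, HERC6, IFI16, IFI44, IRF7, IRF9 and XAF1 passed as lower in ERK5-ko, IRF7 at -0.97 (adjusted p = 5.28e-05) and DDX58 at -0.90. The count of 0 stayed at 0 with an unadjusted p under 0.05 in place of the adjusted one, and was 1 in limma voom on whole reads. In Hs-578T 6 genes were called higher in ERK5-ko than in MEK5DD (IRF7, ISG20, OAS1, OAS2, OAS3 and USP18) and 2 lower (BST2 and IFI27), with 15.3% and 3.96% of all genes. At any fold 15 passed higher and 9 lower, with 30.7% and 19.2% of all genes. IFI27 differed most, at -2.07 (SE 0.20, adjusted p = 9.56e-06), and OAS3 most among the higher genes, at 1.65 (SE 0.11, adjusted p = 4.59e-07). Without the MEK5DD library of passage 9, 12 genes were called higher.

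Parental cells of the lines differed in these genes before any alteration. Of 48, 26 were called higher in parental MDA-MB-231 than in parental Hs-578T, where 34.1% of all genes were, and 6 lower (EPSTI1, IFI44L, IFI6, IRF9, PARP9 and USP18), where 15.4% were. At any fold 29 passed higher and 10 lower, with 46% and 31.3% of all genes. The median log2 difference of the 48 was 0.78, and that of all genes 0.19. HERC5, IFI27 (5.22, SE 0.20), BST2 (4.25, SE 0.19), IFIT3 (3.95, SE 0.10), IFIT2 (3.83) and OASL (3.82) had the largest differences. IFI6, which opposes apoptosis at mitochondria, led in the other direction at -2.09 (adjusted p = 1.59e-07), with 10.4 and 9.46 RPKM in MDA-MB-231 and 50.7 and 38.2 in Hs-578T. Group means of the 49 genes had a median of 18.4 RPKM in parental MDA-MB-231, 13.5 in its ERK5-ko and 11.4 in its MEK5DD cells. In Hs-578T these medians were 5.62, 4.64 and 5.03. In parental cells of both lines LGALS3BP and IFITM3 had the highest levels.

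The effect of each label differed between the lines for more than 1 in 2 genes, as tested by the contrast of both differences. For ERK5-ko 13 genes passed with a higher change in MDA-MB-231 and 14 with a lower one, where 18.3% and 21.5% of all genes did. LGALS3BP (1.299, adjusted p = 2.25e-05), OAS3 (-1.36, adjusted p = 5.58e-05), IFIT3 (-1.11, adjusted p = 0.000142), DDX58 (-1.33) and MX2 (1.24) had the smallest p-values. For MEK5DD 5 genes passed with a higher change in MDA-MB-231 and 23 with a lower one, where 21.3% and 18.2% of all genes did. RSAD2 (-3.01, adjusted p = 7.75e-07), IFI27 (-3.92, adjusted p = 1.87e-06), IFIT3 (-1.64, adjusted p = 7.44e-06), OASL (-1.91) and IFIT5 (-1.15) led there. Several of these genes, RSAD2 and OASL among them, were near the filter in Hs-578T, where a fall on the log2(RPKM + 0.5) scale is limited. MAP2K5 RNA rose far more with MEK5DD in MDA-MB-231 than in Hs-578T, so that the label was not an equal alteration in both lines. The part of this in the differences was not tested.

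**Figure D3:**
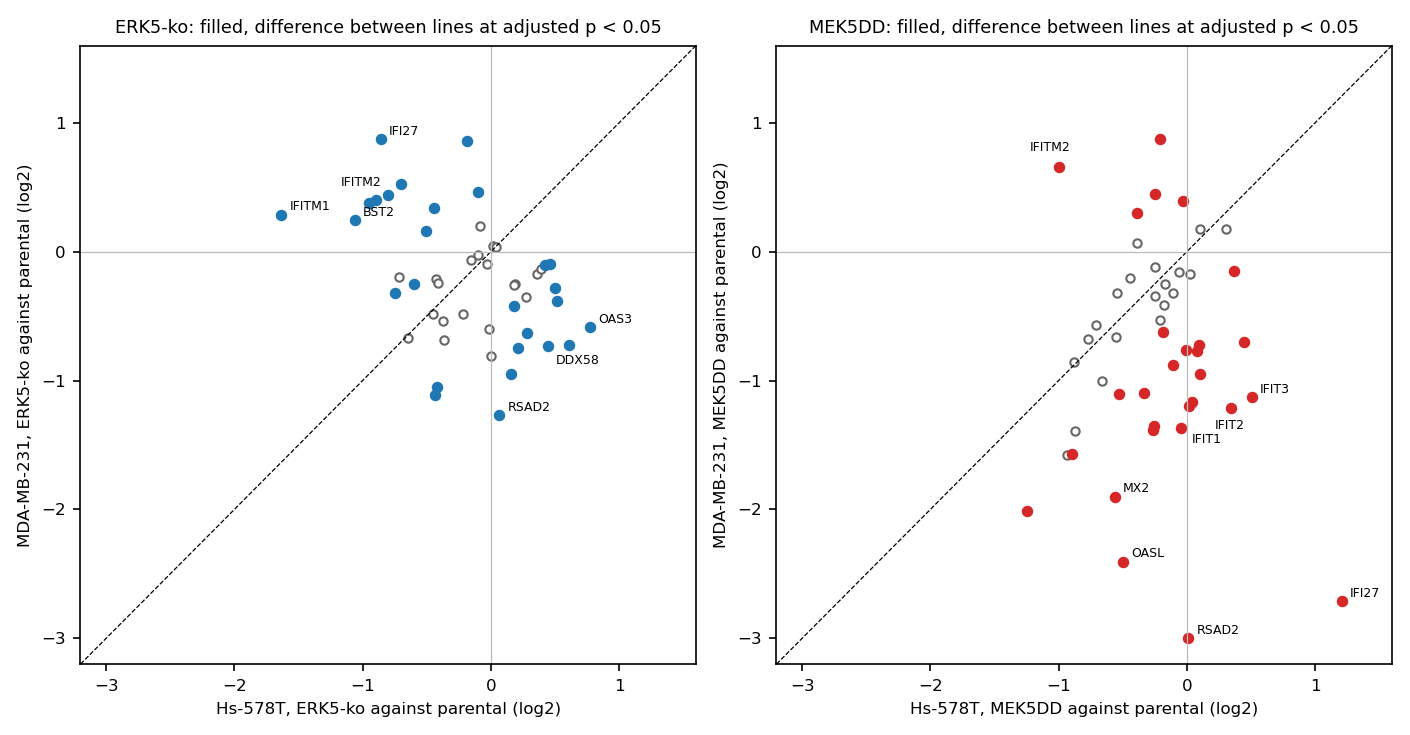
Log2 difference from parental of the 48 genes in Hs-578T (horizontal) and MDA-MB-231 (vertical), for ERK5-ko on the left and MEK5DD on the right, with a dashed line of equal change. Filled points passed the test of the difference between the lines, 27 for ERK5-ko and 28 for MEK5DD; names mark differences above 1.3.

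The lines have separate controls, so the genes that passed in both can be counted. With MEK5DD 12 genes passed lower in both, 12 of the 30 in MDA-MB-231 (40%) and 12 of the 17 in Hs-578T (70.6%). Over all tested genes those shares were 15.4% and 21.6%. Of all 48 genes 35.4% passed lower with MEK5DD in Hs-578T and 62.5% in MDA-MB-231. The overlap is thus near what the shares among the 48 give by themselves. The 12 were OAS1, OAS2, OAS3, OASL, MX1, MX2, ISG20, IFITM1, GBP2, PARP9, PSMB9 and LGALS3BP. In Hs-578T OASL did not pass in limma voom (adjusted p = 0.0889) or in limma with median-ratio scaling (adjusted p = 0.0612). PSMB9 did not pass there in limma with median-ratio scaling (adjusted p = 0.0828) or quantile normalization (adjusted p = 0.101). IFI27, IFIT3 and IFIT5 passed lower in MDA-MB-231 but higher in Hs-578T, and IFITM2 and IRF9 the reverse. The first 3 were 10% of the 30 lower in MDA-MB-231, against 7.85% over all genes, and the other pair 40% of the 5 higher there, against 23.3%. Of the 48 genes 10.4% passed higher and 35.4% lower with MEK5DD in Hs-578T. With ERK5-ko 6 genes passed lower in both (IFI44, IFI44L, IFIT1, ISG15, MX1 and OASL), 35.3% of the 17 in MDA-MB-231 and 31.6% of the 19 in Hs-578T, against 12% and 6.35% over all genes. Of all 48 genes 39.6% passed lower with ERK5-ko in Hs-578T and 35.4% in MDA-MB-231, so that this overlap is not above the shares among the 48. OASL with ERK5-ko in Hs-578T did not pass in limma voom (adjusted p = 0.0715). DDX58, DDX60, OAS2 and OAS3 passed lower in MDA-MB-231 but higher in Hs-578T, and IFI27, LGALS3BP, MX2 and TRIM22 the reverse. The first 4 were 23.5% of the 17 lower in MDA-MB-231, against 44.8% over all genes, and the other 4 were 66.7% of the 6 higher there, against 39.9%. Of the 48 genes 14.6% passed higher and 39.6% lower with ERK5-ko in Hs-578T. None of the 6 and 7 genes that passed higher with ERK5-ko, or of the 5 and 5 with MEK5DD, was shared between the lines in limma. Over all genes 12.6% and 4.43% of those higher with ERK5-ko were shared, and 7.39% and 20.1% with MEK5DD, so that a count of 0 among so few is near the background.

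Several genes lie side by side in families, and neighbours did not always move together. In MDA-MB-231 MEK5DD the 4 IFIT genes on chromosome 10 passed lower, as did the OAS genes on chromosome 12 and both MX genes, while IFITM1 fell and IFITM2 rose and GBP2 fell without GBP1 or GBP3. With ERK5-ko in that line OAS1 and MX2 rose where OAS2, OAS3 and MX1 fell. In Hs-578T with both labels the 3 IFITM genes fell.

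**Figure D4:**
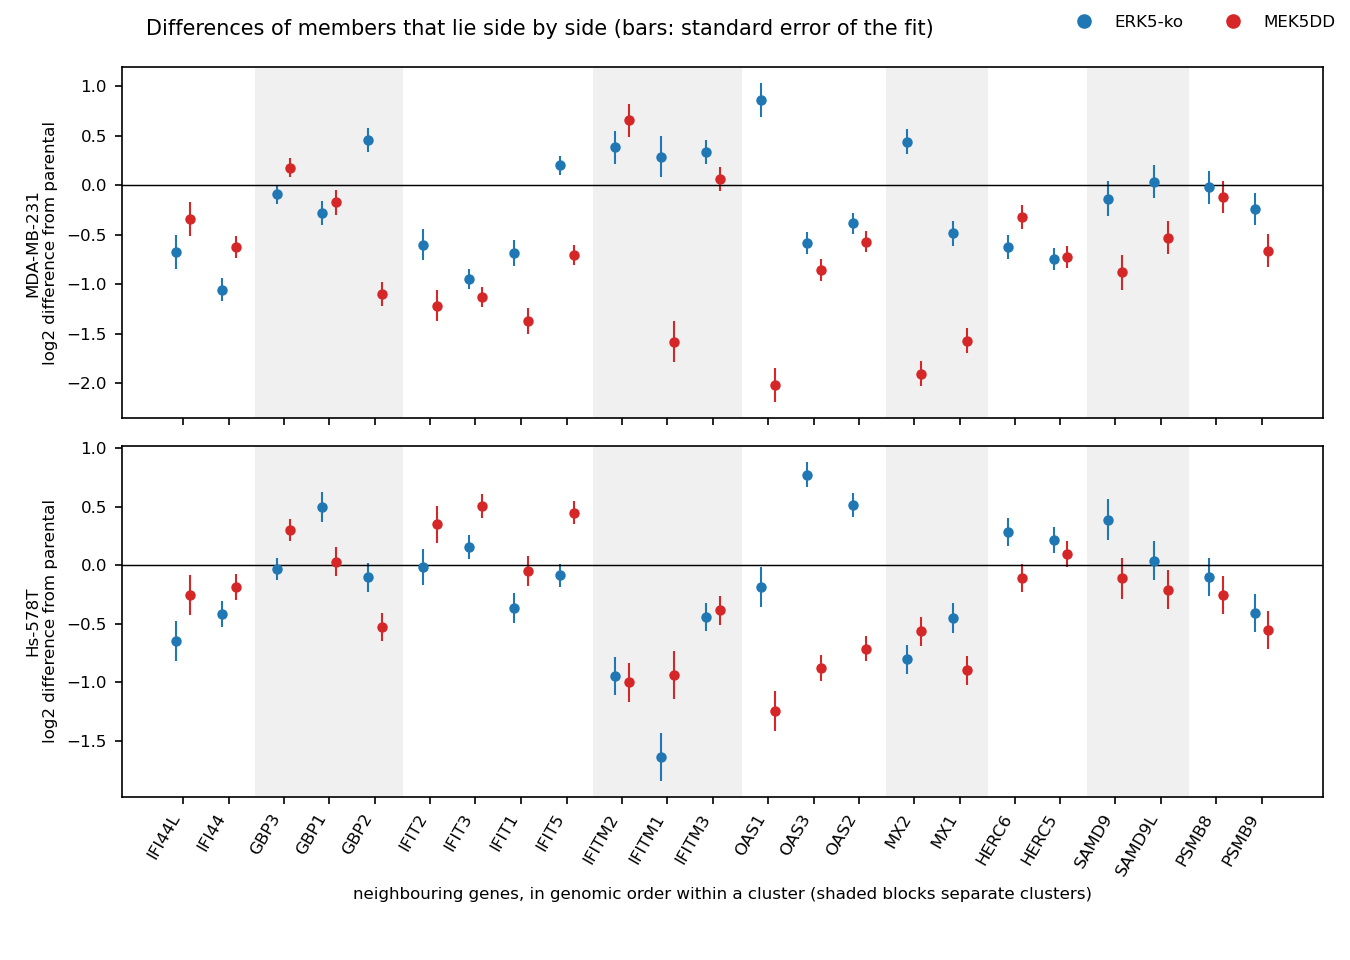
Log2 difference from parental (points) with the standard error of the fit (bars) for members that lie next to each other, in MDA-MB-231 above and Hs-578T below, ERK5-ko blue and MEK5DD red. In MDA-MB-231 the red points of the IFIT, OAS and MX genes lie below 0, and those of IFITM1 (-1.58) and IFITM2 (0.65) lie on opposite sides of it.

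Genes were also set side by side by their promoters. In MDA-MB-231 MEK5DD the 27 tested genes with an ISRE match, as in the stretches of ISG15, IFIT1 and RSAD2 above, had a median of -0.85, and 19 passed lower and 0 higher in limma. None was higher at an unadjusted p under 0.05 either, in limma or in limma voom on whole reads. The 12 without a match had a median of -0.26, with 5 lower and 3 higher. Over all genes 23.8% passed lower and 17.5% higher in that comparison. In MDA-MB-231 ERK5-ko the medians were -0.32 and -0.22, in Hs-578T ERK5-ko -0.10 and -0.08, and in Hs-578T MEK5DD -0.11 and -0.23. The 9 genes with no promoter entry were left out, and these counts are a description without a test.

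Genes upstream of the response were taken from lists. Their counts in MDA-MB-231 MEK5DD are to be read against shares of all genes. Of these 23.8% passed lower, 17.5% passed higher, 6.31% were called lower and 7.64% were called higher. Of 21 interferon genes 3 had an entry (IFNA1, IFNA8 and IFNE). None of the 3 passed the filter, and no library held more than 6 reads of any. RNA of these 3 was not detectable beyond that at this depth. The other interferon genes have no entry, so that their reads are not known. Of 11 genes of receptors and JAK-STAT signalling, 7 passed lower and 0 higher with MEK5DD in MDA-MB-231 in limma, with a median of -0.48. At an unadjusted p under 0.05, 2 were higher, and limma voom also passed 0. IFNLR1, a subunit of the type III receptor, was called lower at -2.22 (SE 0.15, adjusted p = 3.53e-07), from 2.62 and 2.63 to 0.206 and 0.139 RPKM. IFNGR2, a subunit of the type II receptor, was called lower at -1.34 (adjusted p = 2.38e-07) and IL10RB, shared by type III and interleukin-10 receptors, at -1.01 (adjusted p = 1.03e-05). IFNGR2 and IL10RB lie on chromosome 21 in 1 cluster with IFNAR1 and IFNAR2, the subunits of the type I receptor. IFNAR1 read 34.3 and 32.2 RPKM in parental MDA-MB-231 and 23.4 and 23.8 in MEK5DD. IFNAR2 read 12.7 and 10.96 in parental and 6.18 and 6.44 in MEK5DD libraries. The 7 lower genes are thus not all separate loci. The tested genes of that chromosome had a median of -0.20, and the part of this shift in their values was not tested. In ERK5-ko of that line IFNLR1 was called higher at 0.78 (adjusted p = 0.00408), and 4 of the 11 passed higher, where 6.91% of all genes did. IFNGR1, the other subunit of the type II receptor, was called lower with ERK5-ko in Hs-578T at -1.17 (adjusted p = 2.31e-06). With MEK5DD there 1 of the 11 passed lower, where 17% of all genes did.

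Of 14 tested sensors and adaptors upstream of interferon, 9 passed lower with MEK5DD in MDA-MB-231, and the median was -0.33. None passed higher in limma or limma voom, also at an unadjusted p under 0.05. IRF5 was called lower at -1.36 (adjusted p = 7.35e-06) and TMEM173, the gene of the adaptor STING, at -1.07 (adjusted p = 1.44e-05), while IRF5 was called higher with ERK5-ko at 1.04 (adjusted p = 0.000318). IRF5 also lies on chromosome 7. In Hs-578T with ERK5-ko 1 of the 14 passed higher and 5 lower, where 19.7% of all genes did in each direction. Of 12 inhibitors of interferon signalling, TREX1, an exonuclease that clears cytosolic DNA, was called higher with MEK5DD in MDA-MB-231 at 1.24 (adjusted p = 0.0001). The phosphatase gene PTPN6 was called lower there at -1.02 (adjusted p = 9.72e-05) and higher with ERK5-ko at 0.80 (adjusted p = 0.00226), and PTPN11 was called higher with ERK5-ko in Hs-578T at 0.74 (adjusted p = 0.0119).

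A further 52 interferon-induced genes, none of them among the 49, were counted in the same way, and 49 of them were tested. With MEK5DD in MDA-MB-231 24 passed lower and 7 higher, with a median of -0.33, and 7 were called lower and 3 higher. As shares of the 49, the passing counts stand beside 23.8% lower and 17.5% higher over all genes, and the called counts beside 6.31% and 7.64%, so that the higher ones are near or under the background. APOBEC3G, a cytidine deaminase, fell most (-2.28, adjusted p = 4.02e-07), followed by APOL1 (-1.77), TNFSF10, the gene of TRAIL (-1.77), CMPK2 (-1.15), UBA7, which activates ISG15 (-1.11), RTP4 (-1.11) and TYMP (-1.07). WARS (1.18), SLFN5 (1.17) and SP100 (0.65) were called higher. With ERK5-ko in that line C1R (1.001) and C1S (0.92), proteases of the complement system, were called higher and TYMP (-1.34) lower. In Hs-578T ERK5-ko C1R (-1.21), C1S (-1.37), their inhibitor SERPING1 (-1.68) and SLFN5 (-1.20) were called lower, and CD274, the gene of PD-L1 (1.07), TAP2 (0.92) and GBP5 (0.90) higher. With MEK5DD in Hs-578T CD274 was called higher (1.08) and SERPING1 lower (-1.37). Calls were 2 higher and 1 lower of 49 in MDA-MB-231 ERK5-ko, with 2.8% and 1.07% of all genes. They were 3 and 4 in Hs-578T ERK5-ko, with 9.35% and 3.27%, and 1 and 1 in Hs-578T MEK5DD, with 2.9% and 1.49%. Except for the lower calls in Hs-578T ERK5-ko, these counts are near or under the background.

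Markers of cell state moved with the same labels. The summed level of 5 luminal epithelial genes (CDH1, EPCAM, GATA3, KRT18 and KRT8) was 1058 to 1155 RPKM in parental MDA-MB-231, 1850.3 to 1867 in ERK5-ko and 938 to 971 in MEK5DD, and the sum of 3 mesenchymal genes (CD44, CDH2 and VIM) was 2472 to 2665, 2642 to 2713 and 4757 to 4769. With MEK5DD in that line 2 of the 5 luminal genes passed lower (EPCAM at -1.296 and CDH1 at -1.14), 2 of the 3 mesenchymal genes passed higher, and with ERK5-ko 3 of the 5 luminal genes passed higher. The shares of all genes were 23.8% lower and 17.5% higher with MEK5DD and 6.91% higher with ERK5-ko. In Hs-578T the luminal sum was 193 to 268 in parental, 586 to 635 in ERK5-ko and 233 to 258 in MEK5DD libraries. The mesenchymal sum there was 4627 to 4712, 5249 to 5295 and 4450 to 5097 in the same order. With ERK5-ko in Hs-578T 3 of the 5 luminal genes passed higher and 1 lower. There 2 of the 3 mesenchymal genes passed higher as well, and 19.7% of all genes passed in each direction. The sum of 3 endothelial genes (CDH5, PECAM1 and VWF) was 0.740 to 0.886 RPKM in parental MDA-MB-231, 0.30 to 0.383 in ERK5-ko and 0.373 to 0.418 in MEK5DD. In Hs-578T that sum was 5.49 to 5.84 in parental, 6.38 to 6.52 in ERK5-ko and 2.99 to 3.18 in MEK5DD libraries. The sum of 4 leukocyte genes (CD14, CD3E, CD68 and PTPRC) was 64.7 to 70.9 RPKM in parental MDA-MB-231, 54.0 to 66.4 in ERK5-ko and 107 to 109 in MEK5DD, with CD3E at or near 0 in each. In Hs-578T it was 39.5 to 45.1 in parental, 23.6 to 26.2 in ERK5-ko and 43.1 to 54.3 in MEK5DD. Most of it was CD68, called higher with MEK5DD in MDA-MB-231 at 0.70 (adjusted p = 0.00128), while CD14 fell there (-0.97, adjusted p = 0.000185). Their part in the values of the interferon-stimulated genes was not tested.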

How the data were processed

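RNA-seq was made from poly(A) RNA (TruSeq Stranded mRNA) of 12 libraries, 2 in each of 6 groups, from cells at about 70% confluence. The authors deposited 1 table of RPKM values per gene. Per the labels, the submitters' processing notes name GRCh38, bcl2fastq, Trimmomatic 0.32, TopHat2 2.1.1, R 3.3.1 and DESeq2 1.12.4, and how reads were assigned to genes and whether strand was used are not given in the sources used here.

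Whole reads were recovered from the RPKM steps of 32151 of 32152 genes (within 0.01 of a whole number) and gave totals of 20248162 to 27791195 reads. A group with 3 or fewer reads in both libraries was taken as at the floor, and floors cover counting error only. Protein-coding genes reaching 0.5 RPKM in 2 or more libraries (13737 of 17665) were fitted on log2(RPKM + 0.5) in limma 3.58.1 (R 4.3.3), using 6 group means, 6 residual degrees of freedom and an intensity trend, and p-values were adjusted by Benjamini-Hochberg within each comparison. Fold changes on this scale understate the change of low genes. A call required a fold above 1.5 or below 0.5 beside an adjusted p under 0.05, and tests of the difference between the lines the adjusted p alone. An exact permutation test of 2 against 2 libraries cannot give a two-sided p below 0.333 and was not used. In counts simulated for the MDA-MB-231 ERK5-ko comparison over 13737 genes, 46 of 50 genes at a fold of 0.25, 49 of 50 at 0.4 and 50 of 50 at 2 were called, with 4 unchanged genes. The simulated libraries all had the same spread, and no low genes were changed. The recovery therefore does not cover low genes or groups whose libraries lie further apart.

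The genes and lists were chosen with earlier results of these data known. Every one of the 49 genes is named. Values per library are given for STAT2, IRF9, IRF1 and IRF7, the called genes of each comparison with parental cells (up to 8 per direction by size), the 5 with the highest mean level and the 5 with the smallest p between the lines, and those of other genes were added where a family is described. From the other lists, called genes are named. Alternatives were other pseudocounts, filters, scalings, fold thresholds, gene types, limma voom on the whole reads, the libraries of 1 line, a replicate block and leaving out each library. A correction for gene length, alone and with the block, was chosen after seeing the data. 1 gene of the leukocyte marker list is not reported here.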

Additional observations from a re-analysis of the deposited data

Results flagged for a closer look

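For each gene below, the change from parental in MDA-MB-231 minus that in Hs-578T passed the test of the difference between the lines (limma, adjusted p under 0.05 over 13737 genes). A positive value is a higher change in MDA-MB-231, on the log2(RPKM + 0.5) scale. Parental levels also differed between the lines, and a gene near 0 in Hs-578T has little room to fall. MAP2K5 RNA rose far more with the MEK5DD label in MDA-MB-231 than in Hs-578T. HERC5 and CXCL11 had groups with 3 or fewer reads per library, so that their values depend on the added 0.5 RPKM.

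With ERK5-ko the change was higher in MDA-MB-231 for 13 genes. They were led by IFITM1 (1.92), IFI27 (1.73), IFITM2 (1.33), BST2 (1.31), LGALS3BP (1.3) and MX2 (1.24). Next came TRIM22 (1.22), OAS1 (1.04), IFITM3 (0.78), IFI35 (0.67), GBP2 (0.56) and EPSTI1 (0.42). The last was IRF9 (0.35). With ERK5-ko the change was lower in MDA-MB-231 for 14 genes. They were led by OAS3 (-1.36), RSAD2 (-1.33), DDX58 (-1.33), DDX60 (-1.18), IFIT3 (-1.11) and HERC5 (-0.96). Next came HERC6 (-0.91), OAS2 (-0.90), GBP1 (-0.78), OASL (-0.67), IFI44 (-0.64) and IFIH1 (-0.60). After these came IRF7 (-0.55) and XAF1 (-0.53).

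With MEK5DD the change was higher in MDA-MB-231 for 5 genes. They were led by IFITM2 (1.65), IRF7 (1.08), IRF9 (0.69), IFI16 (0.69) and XAF1 (0.42). With MEK5DD the change was lower in MDA-MB-231 for 23 genes. They were led by IFI27 (-3.92), RSAD2 (-3.01), OASL (-1.91), IFIT3 (-1.64), IFIT2 (-1.56) and MX2 (-1.34). Next came IFIT1 (-1.32), EPSTI1 (-1.22), DDX60 (-1.21), IFIT5 (-1.15), ISG15 (-1.12) and CXCL11 (-1.10). After these came IFIH1 (-1.05), IRF1 (-0.85), HERC5 (-0.82), SAMD9 (-0.77), OAS1 (-0.77) and TRIM22 (-0.76). Further genes were BST2 (-0.75), MX1 (-0.67), GBP2 (-0.57), STAT2 (-0.52) and IFI44 (-0.44).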

How the results depend on the processing

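None of the 257 single-gene values that passed the test changed sign under an alternative, while 76 of the other values did, each at most 0.27 in size. The counts of called genes varied most with the fold threshold. With a fold of 1.5 in both directions, the genes called lower numbered 12 (MDA-MB-231 ERK5-ko), 11 (Hs-578T ERK5-ko), 28 (MDA-MB-231 MEK5DD), 9 (Hs-578T MEK5DD), 3 (MDA-MB-231 ERK5-ko against MEK5DD) and 5 (the same in Hs-578T). Dropping the fold threshold gave 6 higher and 17 lower genes for MDA-MB-231 ERK5-ko, 7 and 19 in Hs-578T ERK5-ko, 5 and 30 in MDA-MB-231 MEK5DD, and 5 and 17 in Hs-578T MEK5DD. Without it 8 were lower in MDA-MB-231 ERK5-ko against MEK5DD, 15 higher and 9 lower in Hs-578T, and 10 lower between the parental lines.

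Hs-578T calls moved with other choices too, and the cause was not tested. Between the libraries of a group, the chi-square per degree of freedom of whole reads was 30.7 in Hs-578T parental and 41.9 in Hs-578T MEK5DD. In the other groups it lay between 2.82 and 8.79. Because the spread is pooled over all 6 groups, p-values of Hs-578T comparisons rest partly on the closer libraries of other groups. For ERK5-ko there, higher calls were 1 with a pseudocount of 1 or median-ratio scaling and 4 with limma voom, and lower calls were 1 with a pseudocount of 1 or the length correction, alone or with the replicate block. For MEK5DD there, higher calls were 2 with median-ratio scaling or quantile normalization, and lower calls were 5 with a pseudocount of 0.1, 0 with 1, 6 with limma voom and 2 with the length correction, alone or with the block. Lower calls of ERK5-ko against MEK5DD were 1 in MDA-MB-231 with a pseudocount of 0.1 or limma voom, and 1 in Hs-578T with a pseudocount of 1 or the length correction, alone or with the block.

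Leaving out each library in turn gave 0 to 2 higher and 1 to 4 lower calls in MDA-MB-231 ERK5-ko, 2 to 5 and 1 to 3 in Hs-578T ERK5-ko, 1 to 2 and 16 to 18 in MDA-MB-231 MEK5DD, and 1 to 2 and 0 to 4 in Hs-578T MEK5DD. It gave 18 to 21 and 0 to 1 for MDA-MB-231 ERK5-ko against MEK5DD, 5 to 12 and 1 to 3 for Hs-578T, and 24 to 26 and 5 to 6 between the parental lines. Between the lines it gave 10 to 13 and 10 to 18 genes for ERK5-ko and 4 to 5 and 17 to 24 for MEK5DD. A lone library is then assumed to vary like the other groups. The lowest count of MDA-MB-231 ERK5-ko lower calls (1) came without its ERK5-ko library of passage 7. In Hs-578T MEK5DD the lower calls were 4 without the parental library of passage 84 or the MEK5DD library of passage 8.

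Same-numbered libraries had correlated deviations (0.107 to 0.541 across 13737 genes over 6 pairs of groups, highest for parental and MEK5DD in Hs-578T). With 2 pairs per comparison and no shared origin in the labels, the numbers were not taken as a pairing. With the replicate block, MDA-MB-231 MEK5DD had 18 lower and 2 higher calls, 0 of the 257 values lost significance and 29 others passed, among them EIF2AK2 with ERK5-ko in Hs-578T (adjusted p = 0.0183) and PARP14 with MEK5DD in MDA-MB-231 (adjusted p = 0.0141). Of the 257, significance was lost by 18 without the filter on low values, 17 with median-ratio scaling, 14 with quantile normalization and 11 with limma voom. It was lost by 39 of 163 with the libraries of 1 line only and, on leaving out each library in turn, 310 times against 2774 times kept. Limits are 2 libraries per group, passages in place of separate cultures, and low levels in Hs-578T.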
